A study of Homo sapiens with 2 samples.

Results

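The HOX genes encode homeodomain transcription factors that give position along the body axis and the limb. In human they lie in 4 clusters, HOXA, HOXB, HOXC and HOXD, in which the genes are transcribed in a single direction and are numbered by paralogue group from the 3′ end of the cluster, whose genes act towards the head, to the 5′ end, whose genes act towards the tail and the limb tips. Polycomb proteins keep the clusters silent and trithorax proteins keep them active, so a differentiated cell usually keeps part of a cluster open. The genes described here are the protein-coding genes of the RefSeq table on GRCh38 whose symbols are HOXA, HOXB, HOXC or HOXD followed by a number. There were 40 of them among 20037 protein-coding genes, with 12 in HOXA, 10 in HOXB, 9 in HOXC and 9 in HOXD. One of the HOXA entries is HOXA10-HOXA9, a read-through of neighbouring genes, which is counted as a member but belongs to no paralogue group.

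The data are the peaks of 1 anti-Flag chromatin immunoprecipitate, sequenced together with 1 input library without antibody. The immunoprecipitated cells were A549, an established human lung adenocarcinoma line used as a model of non-small cell lung cancer (NSCLC). They carried an shRNA against ETV4 and were then transfected again with Flag-tagged ETV4. ETV4 is a PEA3-group member of the ETS family, whose DNA-binding domain recognises a GGAA core. The peaks therefore describe a tagged protein supplied from a plasmid in 1 cell line, and a Flag immunoprecipitate of cells without Flag-ETV4 was not analysed here. With 1 library there is no replicate, so nothing below is tested. Intervals are 95% intervals that cover counting error only, Wilson intervals for shares of genes and exact Poisson intervals for counts of fragments. Fragments amplified by PCR are not independent molecules, and neighbouring genes share peaks, and these intervals leave both out. Fold is the deposited enrichment of the immunoprecipitate over the control level at the summit of a peak. Pileup is the number of fragments at that summit, solved from the fold and its p-value, and the total depth of the libraries is unknown.

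The promoter sequences that frame the results are shown before the values, since peaks overlapped some of the matched promoter windows and not others. RefSeq promoter windows on GRCh38.p14, each running from 250 bases before a gene's start to 50 after it, were matched for 21 of the 40 genes and gave 27 distinct windows. For each of 6 genes, the bases before the start are printed 5′ to 3′ on the gene's own strand, with each GGAA and its reverse complement TTCC in capitals. HOXD13, HOXD8 and HOXA13 are shown because a strong peak overlapped their windows. HOXD4, HOXD1 and HOXB1 are shown because no peak lay within 1 kb of the gene.
HOXD13 chr2:176092471-176092720 (plus strand): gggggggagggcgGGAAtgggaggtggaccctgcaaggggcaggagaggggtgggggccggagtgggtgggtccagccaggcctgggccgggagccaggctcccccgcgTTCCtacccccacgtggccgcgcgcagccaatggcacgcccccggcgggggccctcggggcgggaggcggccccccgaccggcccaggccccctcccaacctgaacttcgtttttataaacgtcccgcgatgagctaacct
HOXD8 chr2:176129455-176129704 (plus strand): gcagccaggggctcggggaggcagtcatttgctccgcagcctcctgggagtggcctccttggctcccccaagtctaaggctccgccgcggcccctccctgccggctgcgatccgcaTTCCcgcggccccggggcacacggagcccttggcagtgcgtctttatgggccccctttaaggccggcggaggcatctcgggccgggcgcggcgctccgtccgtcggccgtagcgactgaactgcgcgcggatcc
HOXA13 chr7:27200092-27200341 (minus strand): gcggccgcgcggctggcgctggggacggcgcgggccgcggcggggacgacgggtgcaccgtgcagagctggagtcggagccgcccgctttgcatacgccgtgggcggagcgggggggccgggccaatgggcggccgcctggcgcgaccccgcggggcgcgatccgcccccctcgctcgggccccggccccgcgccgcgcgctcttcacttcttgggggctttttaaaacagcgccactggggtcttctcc
HOXD4 chr2:176151300-176151549 (plus strand): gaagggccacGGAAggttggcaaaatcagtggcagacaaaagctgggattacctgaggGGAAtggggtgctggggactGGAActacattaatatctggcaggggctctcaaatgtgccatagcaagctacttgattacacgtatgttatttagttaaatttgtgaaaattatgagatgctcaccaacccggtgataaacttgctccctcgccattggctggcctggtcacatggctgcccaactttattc
HOXD1 chr2:176188418-176188667 (plus strand): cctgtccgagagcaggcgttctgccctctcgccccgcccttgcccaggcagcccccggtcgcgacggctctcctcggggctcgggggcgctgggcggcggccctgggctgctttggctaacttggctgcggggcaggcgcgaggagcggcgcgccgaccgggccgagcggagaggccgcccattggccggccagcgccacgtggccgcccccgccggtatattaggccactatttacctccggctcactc
HOXB1 chr17:48531012-48531261 (minus strand): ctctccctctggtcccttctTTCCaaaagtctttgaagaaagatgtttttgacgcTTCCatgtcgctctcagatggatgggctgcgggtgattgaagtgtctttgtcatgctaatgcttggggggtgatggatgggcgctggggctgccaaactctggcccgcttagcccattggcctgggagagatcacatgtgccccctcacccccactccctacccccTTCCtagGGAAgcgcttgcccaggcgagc

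The core was present in some and absent from others of the printed windows, with and without a peak. HOXD13 had 2 copies of GGAA on either strand in the printed bases and HOXD8 had 1. HOXA13 had 0, in a window overlapped by a peak of fold 21.6. The summits of the peaks at these genes, where the fold was taken, lay outside the printed bases. Among the genes without a peak, HOXB1 had 4 copies, HOXD4 had 3 and HOXD1 had 0. The printed HOXD4 window holds CGGAAG, 1 of the longer forms that ETS proteins favour, and the nearest summit lay 10934 bp from its start.

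Of the 40 HOX genes, 30 had at least 1 Flag-ETV4 peak from 1 kb outside the gene, that is 75% (interval 59.8 to 85.8). The same rule gave 74.2% of all protein-coding genes, so the share of HOX genes with a peak was near the background. A peak of fold over 10 was found for 21 HOX genes, or 52.5%, against 56.6% of all protein-coding genes. The median of the highest fold per gene was 20.3 among HOX genes with a peak and 20 among all protein-coding genes with a peak. HOX genes are short, with a median of 3.79 kb and a range of 1.68 to 45.6 kb, and a long gene has more room for a peak. Among the 33 HOX genes of at most 10 kb, 24 had a peak, or 72.7%, against 51.7% of all protein-coding genes of that size. A peak within 1 kb of either end was found for 27 HOX genes, or 67.5%, against 62.1% of all protein-coding genes. In 24 HOX genes, or 60%, a peak lay within 1 kb of the 5′ end, against 61.3% of the 15843 protein-coding genes whose strand the promoter table gives. In 11, or 27.5%, a peak lay within 1 kb of the 3′ end, against 9.56% of those genes. HOX genes are short and close together, and the effect of this on the 3′ share was not tested.

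The density of peaks in the clusters was set beside that of the genome. The 4 clusters, each taken from 1 kb outside its outermost genes, spanned 536 kb and held 68 peaks, or 12.7 per 100 kb. In 18620 windows of 100 kb that hold part of a protein-coding gene, the median was 2 peaks and the 95th percentile was 8. Of those windows, 3.62% held 9 or more peaks, whereas the cluster with the lowest density, HOXD, had 9.49 per 100 kb. The windows were not matched for the number of genes, and each cluster held 9 to 12 HOX genes. The part of gene density in this difference was not tested. Outside the clusters, the 100 kb on either side held 1 and 3 peaks at HOXA, 2 and 1 at HOXC, and 4 and 1 at HOXD, whereas HOXB had 10 and 6. A peak that straddled the HOXD bound before HOXD13 was counted both in the cluster and among the 4 of its flank.

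**Figure D1:**
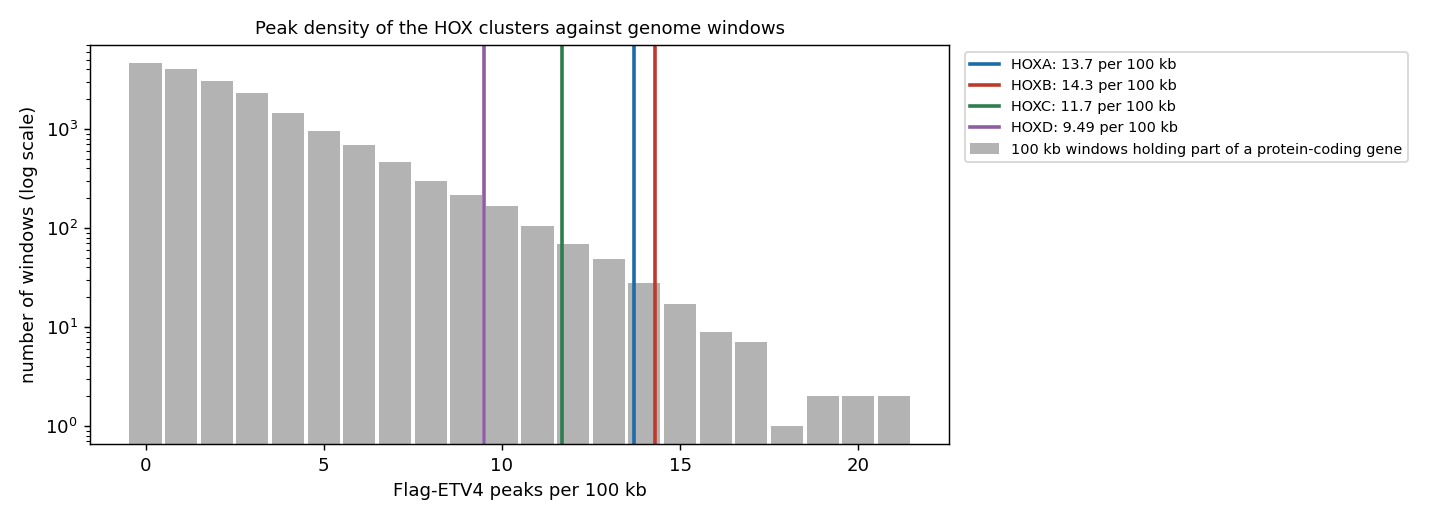
Histogram of Flag-ETV4 peaks per 100 kb over 18620 windows holding part of a protein-coding gene (bars, number of windows on a log axis), with a vertical line at the density of each HOX cluster. The lines stand at 9.49 (HOXD), 11.7 (HOXC), 13.7 (HOXA) and 14.3 (HOXB) peaks per 100 kb, to the right of the window median of 2. The windows are not matched for the number of genes.

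The peaks of the clusters had higher medians of fold, width and pileup than the whole list. Their median fold was 12.4, against 9.63 over all 54389 peaks, and 60.3% of them had a fold over 10, against 48.5%. Their median width was 740 bp, against 519 bp. A width of 2 kb or more was found for 7 of the 68 peaks, or 10.3%, against 2.74% of all peaks. The median pileup was 35 fragments, with a range of 8 to 349, against 26 over the whole list. The control level at the summits was higher too, with a median of 2.22 fragments against 1.67, and its part in these differences was not tested.

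The share of genes with a peak ranged from 44.4% in HOXD to 88.9% in HOXC, and each count rests on few genes. HOXC had a peak at 8 of 9 genes (88.9%, interval 56.5 to 98.0), HOXA at 10 of 12 (83.3%, 55.2 to 95.3), HOXB at 8 of 10 (80%, 49.0 to 94.3) and HOXD at 4 of 9 (44.4%, 18.9 to 73.3). The intervals of all 4 overlapped. HOXC4, HOXC5 and HOXC6 shared their strongest peak, so they are not separate observations. With a window of 3 kb the counts were 12 in HOXA, 8 in HOXB, 8 in HOXC and 6 in HOXD. Where a fold over 10 was required, the counts were 7 in HOXA, 7 in HOXB, 3 in HOXC and 4 in HOXD. As shares these were 58.3%, 70%, 33.3% and 44.4%, against 56.6% of all protein-coding genes. HOXC, the fullest cluster by any peak, was then the lowest. HOXD held 10 peaks, HOXC 14, HOXA 15 and HOXB 29. Peaks covered 17% of the bases of HOXB, 13.2% of HOXC, 11% of HOXA and 8.18% of HOXD. Summed over the peaks, the pileup per 100 kb was 1100 fragments in HOXB, 603 in HOXC, 530 in HOXD and 375 in HOXA. The HOXB value includes the long interval to HOXB13, without which it was 1780. HOXA, second by number of peaks per 100 kb, was thus last by fragments.

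**Figure D2:**
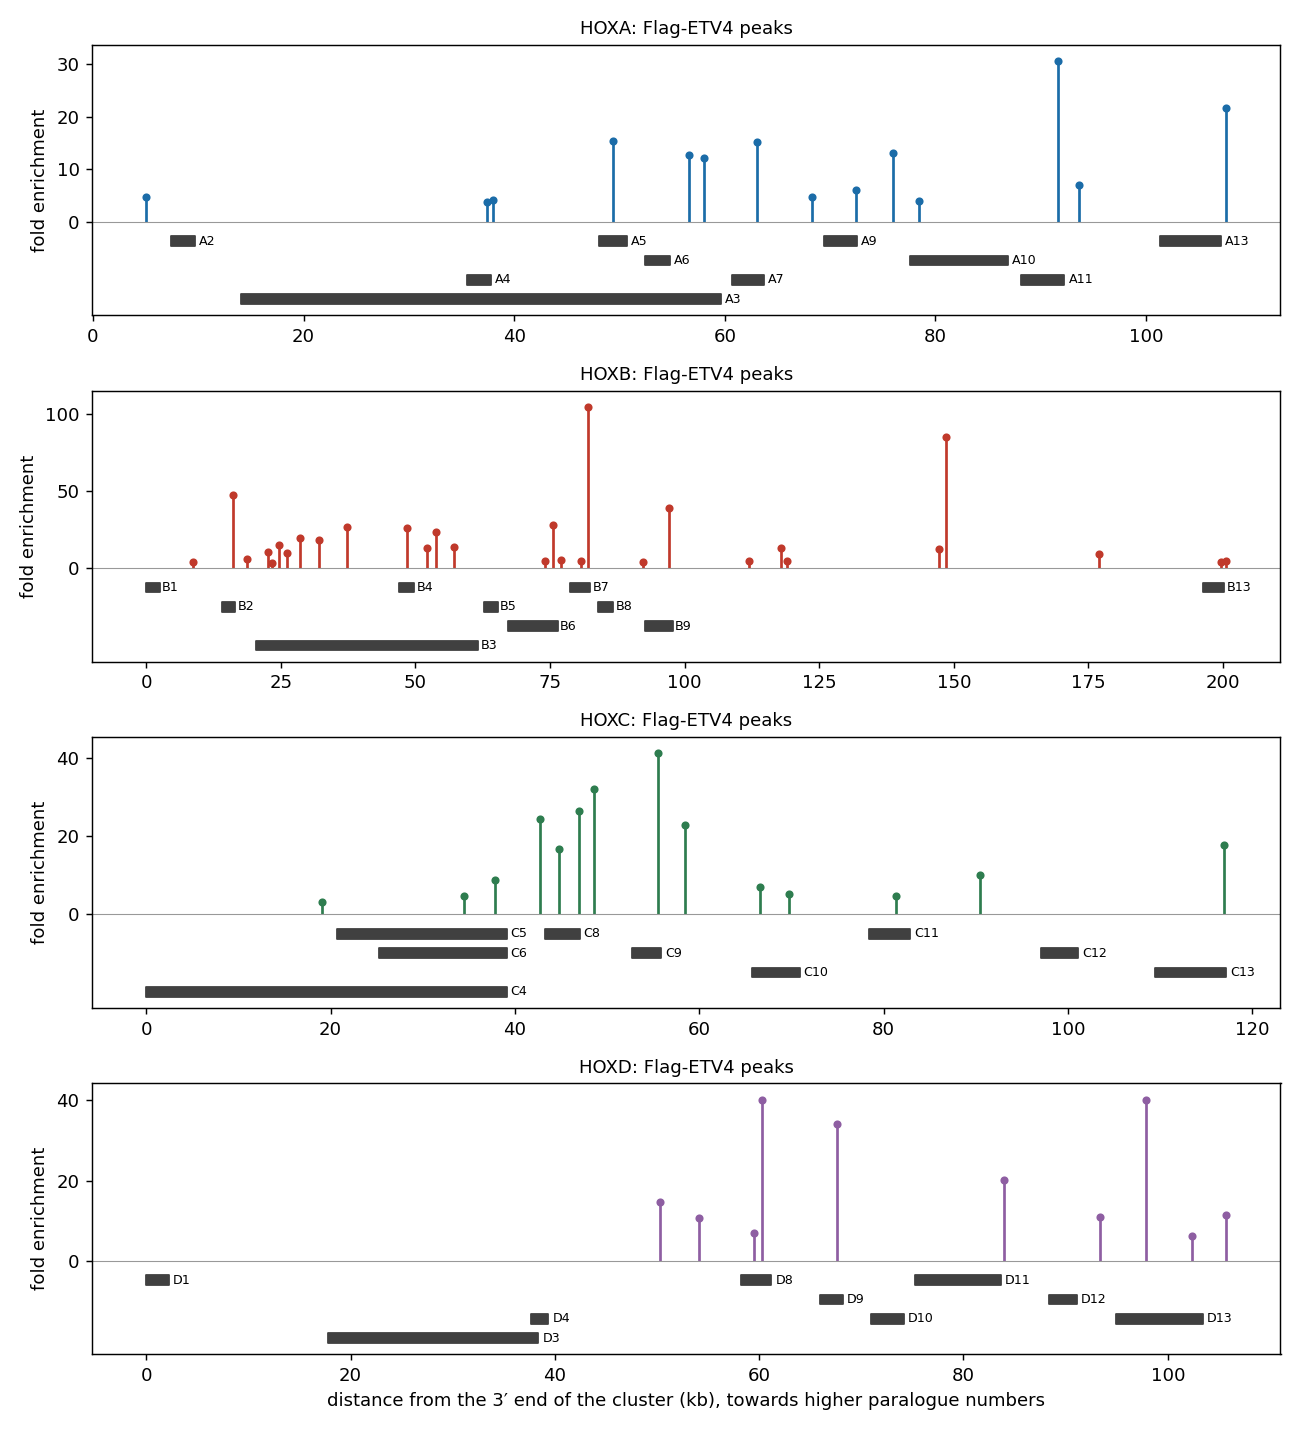
Peaks along each HOX cluster (14 of the 15 in HOXA), with fold enrichment at each summit (stems) against the distance in kb from the 3′ end of the cluster, and genes drawn below as bars over all their transcripts (A2 stands for HOXA2 and so on). HOXD shows no stem over HOXD1, HOXD3 and HOXD4, and HOXB shows its stems densest between HOXB2 and HOXB9.

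The HOXB cluster on chromosome 17 held the strongest HOX peak. It covered chr17:48610017-48613858, 3842 bp that run from inside HOXB7 into the 3′ end of HOXB8. Its fold was 104.7, its pileup was 349 fragments (interval 313 to 388) and its control level was 2.3. It ranked at the 99.2nd percentile of all peaks by fold and was the only cluster peak in the top 1%. Its summit lay 487 bp inside the 5′ end of HOXB7, a gene of the trunk that is often raised in carcinomas. HOXB8, the next gene, had no other peak within 1 kb.

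The peak of next highest fold in HOXB lay at no HOX gene. It covered chr17:48676820-48677528 inside the long non-coding RNA gene LINC02086, in the 98.4 kb between HOXB9 and HOXB13, and its summit was 47641 bp from HOXB13. Its fold was 85.3 and its pileup 285 (253 to 320), an interval that overlaps that of the HOXB7 peak. The third covered chr17:48540997-48545916, a width of 4920 bp that spans HOXB2, a hindbrain gene, and part of the antisense gene HOXB-AS1. Its fold was 47.7 and its pileup 235 (206 to 267). A peak in such an overlap cannot be assigned to either gene.

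HOXB held further broad peaks along its length. HOXB9 had a peak of fold 38.9 with a pileup of 248 (218 to 281), an interval that overlaps that of the HOXB2 peak. Its fold was lower than that of the HOXB2 peak, and its control level of 5.40 was the highest among the cluster peaks. HOXB6 had 3 peaks of up to fold 28.3. HOXB4, known for expanding blood stem cells when supplied, had 1 of fold 26.0. HOXB3, drawn over 41.4 kb when all transcripts are counted, had 11 peaks of fold 3.49 to 26.6, and its extent includes HOXB4. HOXB13, a prostate gene that lies apart from the others, had only weak peaks, the higher of fold 4.46 with a pileup of 17 (9.90 to 27.2). HOXB1, a gene of hindbrain segmentation, and HOXB5 had none within 1 kb, with the nearest peak 6119 bp and 4806 bp away. The stretch from HOXB1 to HOXB9 alone, 99.8 kb, held 21 peaks that covered 30.2% of it. This segment was chosen after seeing the data. Between HOXB9 and HOXB13 there were 6 peaks beyond 1 kb of either gene.

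In HOXC, on chromosome 12, the strong peaks lay in the middle of the cluster. HOXC9 had the highest, chr12:53999634-54000938, with a fold of 41.2 and a pileup of 134 (112 to 159), and its summit was 307 bp inside the gene. HOXC8, a gene of the thoracic region, had 4 peaks within 1 kb. The strongest of them, chr12:54007105-54008248, had a fold of 32.1, a pileup of 86 (68.8 to 106) and a summit 1568 bp before the gene. The next, chr12:54008880-54009668, had a fold of 26.5, a pileup of 75 (59.0 to 94.0) and a summit 112 bp inside the gene. Their pileup intervals overlapped.

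Away from HOXC8 and HOXC9 the HOXC values were lower. HOXC4, HOXC5 and HOXC6 share their outer 5′ end in the annotation and shared a peak of fold 8.91 there. HOXC10 reached 6.91 and HOXC11 4.82. HOXC13, a gene of hair and nail, had a peak of fold 17.9 over its 5′ end. HOXC12 had none, with the nearest 6471 bp away in HOTAIR, a long non-coding RNA gene known for its link to Polycomb, where a peak had a fold of 10.1.

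In HOXD, on chromosome 2, each of the 4 genes with a peak had 1 of fold over 20. HOXD13, which shapes the digits, had the highest, chr2:176092595-176093343, with a fold of 40.2 and a pileup of 110 (90.4 to 133). HOXD8 followed at chr2:176129409-176131000 with a fold of 40.1 and a pileup of 134 (112 to 159). HOXD9 had a fold of 34.1 at chr2:176122732-176123561 and a pileup of 90 (72.4 to 111). The fold of HOXD13 and HOXD8 was all but equal and their pileup intervals overlapped, so these data give no order between them. HOXD11, a forearm gene, had a fold of 20.04.

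The remaining HOXD genes had no peak within 1 kb. HOXD12 and HOXD10 lay among the genes with peaks, with the nearest peak 2024 bp and 2795 bp away. HOXD4, HOXD3 and HOXD1 lay together in the longest stretch without a peak in any of the clusters, 50.8 kb at the 3′ end of HOXD. The nearest peak, of fold 14.5, was 10469 bp from HOXD4, 11448 bp from HOXD3 and 47587 bp from HOXD1. The longest empty stretches of the other clusters were 32.1 kb in HOXA, 27.8 kb in HOXB and 25.4 kb in HOXC.

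In HOXA, on chromosome 7, peaks were numerous but held fewer fragments. The highest, at HOXA11, a gene of the forearm and uterus, covered chr7:27184341-27184878 with a fold of 30.7 and a pileup of 69 (53.7 to 87.3), 640 bp inside the gene. At HOXA13, which acts with HOXD13 in the digits, a peak at chr7:27199165-27200888 had a fold of 21.6 and a pileup of 57 (43.2 to 73.9). Its summit lay 540 bp before HOXA13, inside HOTTIP, a long non-coding RNA gene at the tip of the cluster. The pileup intervals of both peaks overlapped.

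The control level was lowest in HOXA and highest in HOXB. Its median at the summits was 1.29 fragments in HOXA, 1.79 in HOXD, 2.26 in HOXC and 2.70 in HOXB. In HOXA, 7 of the 15 summits had the lowest control level of the whole list, 1.28, against 2 in HOXC and 0 in HOXB and HOXD. A fold in HOXA therefore stood on fewer fragments than the same fold in HOXB, and the part of the control level in the order of the clusters was not tested.

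Other HOXA genes were lower. HOXA5, needed for lung development, shared a peak of fold 15.3 with HOXA3, whose extent of 45.6 kb over all transcripts includes it. HOXA7 had 1 of fold 15.2. HOXA9 reached 6.0, HOXA4 4.26 and HOXA10 3.94, the last with a pileup of 8 (3.45 to 15.8). HOXA2, a gene of the second pharyngeal arch, and HOXA6 had none within 1 kb, with the nearest 2174 bp and 1128 bp away, so HOXA6 fell just outside the window. The read-through HOXA10-HOXA9 had 4 peaks, the highest of fold 13.1 between the genes it joins.

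**Figure D3:**
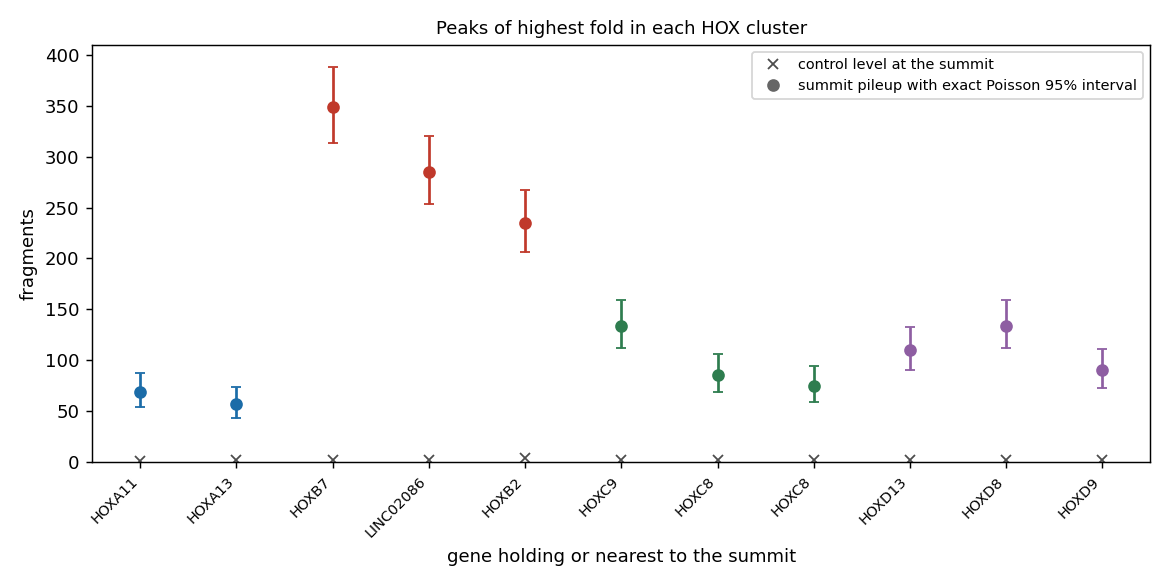
Summit pileup in fragments (points, with exact Poisson 95% intervals) and control level (crosses) for the 3 peaks of highest fold in HOXB, HOXC and HOXD and 2 in HOXA, named by the gene at or nearest to the summit. The HOXB peaks stand between 235 and 349 fragments, the HOXC and HOXD peaks between 75 and 134, and the HOXA peaks between 57 and 69.

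Genes of a paralogue group descend from a single ancestral gene, and they were compared across clusters. Of the 13 groups, 5 had a peak at each of their genes, groups 7, 8, 9, 11 and 13. A group holds only 2 to 4 genes, and the background share given above was 74.2%, so some full groups arise at that share alone. Whether 5 differs from the number that share would give was not tested. The genes of group 8 all had strong peaks, of fold 104.7 at HOXB8, 40.1 at HOXD8 and 32.1 at HOXC8. The HOXB8 value is the peak shared with HOXB7, whose summit lay 1816 bp outside HOXB8, so where the summit had to lie within 1 kb, 2 of the 3 genes of group 8 had a peak and 4 groups were full. Group 9 ranged from 6.0 at HOXA9 to 41.2 at HOXC9, with HOXB9 and HOXD9 between. Group 13 ranged from 4.46 at HOXB13 to 40.2 at HOXD13. Group 10, by contrast, reached no more than 6.91 in any cluster, and neither gene of group 12, HOXC12 and HOXD12, had a peak.

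Joined by position, a peak was found at 4 of 8 genes of groups 1 to 3 (50%, interval 21.5 to 78.5), 12 of 15 of groups 4 to 8 (80%, 54.8 to 93.0) and 13 of 16 of groups 9 to 13 (81.2%, 57.0 to 93.4). These intervals overlapped. For a fold over 10 the shares were 50%, 53.3% and 50%, close to each other and to the 56.6% of all protein-coding genes. Genes that share their strongest peak, such as HOXC4, HOXC5 and HOXC6, or HOXB7 and HOXB8, are not separate observations.

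**Figure D4:**
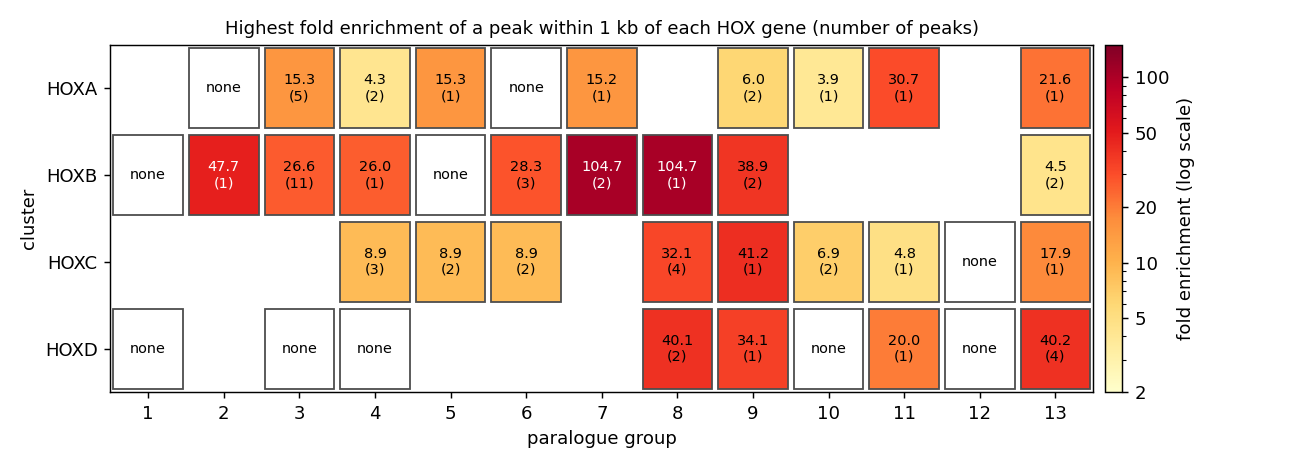
Grid of the 4 HOX clusters (rows) by paralogue group 1 to 13 (columns), with the highest fold of a peak within 1 kb of each gene as number and colour (log scale), the number of peaks in parentheses, white for a gene without a peak and no box where no gene is shown. Some boxes take their value from a shared peak: HOXB7 and HOXB8 (104.7), HOXC4, HOXC5 and HOXC6 (8.9), and HOXA3 and HOXA5 (15.3). The group 12 boxes are both empty.

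Within the clusters, peaks near gene starts had the higher median fold. The summits of 20 of the 68 peaks, 29.4%, lay within 1 kb of the outer 5′ end of a HOX gene, 14 inside the gene and 6 before it. Their median fold was 21.1, against 10.7 for the other 48. The whole list had the same direction, with a median fold of 16.1 for the 15.6% of summits within 1 kb of the 5′ end of a protein-coding gene of known strand, against 8.76 for the rest. Of the 68 peaks, 54 lay within 1 kb of a HOX gene and 10 of these within 1 kb of more than 1. The outer 5′ end covers all transcripts and can lie far from a given start. For HOXD13 it lay several kb before the promoter window printed above, and the summit of the strongest peak was 334 bp inside the start of that window's transcript.

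The promoter windows themselves were mostly without a peak. A peak overlapped 8 of the 27 HOX windows, or 29.6%, against 54.1% of 22078 windows of all protein-coding genes. The 8 belonged to HOXD13, HOXD11, HOXD8, HOXA13, HOXA9, HOXA7, HOXA4 and HOXA3, and 7 of the 27 are alternative starts of HOXA3, of which 1 was overlapped. The table matched few HOXB and HOXC genes, so this share describes HOXA and HOXD for the most part. The overlapped windows were rich in CpG, with a median of 28 CpG in 300 bases against 15 in the 19 windows without a peak. Over all genes the medians were 28 and 7. The 19 HOX windows without a peak include the remaining starts of HOXA3, with 0 to 25 CpG, so 1 gene counts repeatedly in their median. HOXD1, with 36 CpG, and HOXD4, with 4, were both without a peak.

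Motifs were searched on both strands. The core GGAA was found in 24 of the 27 HOX windows, or 88.9%, and in 95.1% of all windows. The windows without it were those of HOXD11, HOXA13 and HOXD1, the first pair under peaks. Of the longer forms, CCGGAA was found in 0 of the 27 HOX windows and in 21.1% of all windows. The other form, CGGAAG, which holds the same core and can overlap the former, was found in 2, those of HOXD4 and of 1 start of HOXA10, or 7.41%, and in 23.7% of all. Of the 8 HOX windows under a peak, 0 held either longer form, against 43.4% of all windows under a peak. A match is a description of the letters and not a binding site, and a window without a match says nothing of sequence outside it, where most of the HOX summits lay. Of the 27 windows, 2 contained a summit.

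The clusters also carry microRNA genes. The mature sequences of 3 microRNAs whose genes lay in or beside HOX peaks, or that share a seed with one that did, are given from RefSeq, 5′ to 3′, with the seed (bases 2 to 8) in capitals.
miR-10a-5p: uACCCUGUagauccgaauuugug
miR-196b-5p: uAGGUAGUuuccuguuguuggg
miR-196a-5p: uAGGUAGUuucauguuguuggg
MIR10A, upstream of HOXB4, lay 37 bp from the HOXB4 peak of fold 26.0. MIR196B, between HOXA9 and HOXA10, lay 244 bp from the peak of fold 13.1. The genes of miR-196a-5p were farther from a peak, MIR196A2 by 1845 bp in HOXC and MIR196A1 by 4915 bp in HOXB. miR-196a-5p and miR-196b-5p have the same seed and differ by A12C, counted from 1 at the 5′ end with the base of miR-196a-5p written before the position. MIR10B, the HOXD counterpart of MIR10A, lay 9222 bp from a peak, in the stretch without peaks at the 3′ end of that cluster.

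Long non-coding RNA genes in or at the edge of the clusters carried many of the same peaks. Of 26 such genes, 21 had a peak from 1 kb outside the gene, or 80.8%, against 37.7% of all long non-coding RNA genes in the table. They overlap or adjoin HOX genes, so most of these peaks are those already described, such as the HOTTIP and HOXB-AS1 peaks. The 5 without a peak were HOXA-AS2, HOXB-AS4, LOC105369775, HAGLR and HAGLROS, the last pair in the stretch of HOXD without peaks.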

How the data were processed

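The authors deposited 1 list of 54389 peaks in narrowPeak layout, called on the single anti-Flag library. It gives the fold over the control as a ratio, and the −log10 p-value and −log10 q-value at each summit, with a display score deposited beside them that was not used. The submitters' processing notes name Bowtie2 2.4.1, SAMtools, MACS2 2.2.7.1, deepTools 3.5.0 and hg38. Apart from a minimum fold, the peak calling parameters and the handling of duplicate reads are not given in the sources used here. The Flag antibody is from Sigma in the labels and from CST in the methods, and this was not settled. The input enters only through the fold, p and q.

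Genes were the outer ends of RefSeq genes on GRCh38.p14, and strand came from the promoter table, 1 direction per cluster. No genome sequence or exons were used. A gene had a peak where at least 1 base of a peak lay from 1 kb outside it. Pileup and control were solved with fold as (pileup + 1)/(control + 1) and a Poisson p-value. 100% of pileups came out within 0.01 of a whole number. The solution and the overlap count were tested on simulated data. Because a fold adds 1 to both levels, it is compressed where the control is low. Named in full are the 3 peaks of highest fold in each cluster, the genes without a peak, the fixed lists and the neighbours of each cluster, and some items of these are not reported here. The members and lists were chosen with earlier results of these data known. Scripts ran in Python 3.11.15 with pandas 2.3.3, scipy 1.17.1, numpy 2.4.6 and, for drawing, matplotlib 3.10.9.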

Additional observations from a re-analysis of the deposited data

How the results depend on the processing

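Alternatives changed the window, the peak threshold, the rule for overlap and the cluster bounds, and of the counts of genes, peaks and full groups 85 stayed within 1.5 times the reported count while 10 moved. The highest fold of a cluster cannot change when weaker peaks are dropped and is not counted here. Counts already near the number of genes, such as 30 of 40 HOX genes or 8 of 9 in HOXC, cannot rise by 1.5 times. That they stayed within this limit under wider windows was fixed in advance. A fall from 30 to 21 HOX genes with fold over 10 also counts as staying. For HOXC, 3 genes kept a peak with fold over 10. The paralogue groups with a peak at every gene, 5 as reported, were 8 with a window of 3 kb, 3 with fold over 5, and 2 with fold over 10 or with −log10 q over 10. HOXA kept 8 of 15 peaks with fold over 10 and 8 with −log10 q over 10, HOXB kept 17 and 19 of 29, and HOXC kept 8 of 14 with fold over 10. These thresholds keep fewer peaks by construction. The order of the clusters was HOXB, HOXA, HOXC, HOXD by peaks per 100 kb, HOXB, HOXC, HOXA, HOXD by bases covered, HOXB, HOXC, HOXD, HOXA by highest fold and by summed pileup, and HOXC, HOXD, HOXB, HOXA by median fold. Of the counts for single paralogue groups, 10 moved and 107 did not, and the count of a full group could not rise. Without the read-through HOXA10-HOXA9, chosen after seeing the data, 29 of 39 genes had a peak (74.4%). Depth limits the weak peaks, since a pileup of 8 has an interval of 3.45 to 15.8. No paired analysis was possible because there is 1 immunoprecipitated library.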

Other observations

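Genes whose products act with HOX proteins, or on the clusters, also had peaks. The TALE homeodomain genes PBX, MEIS and PKNOX, which encode DNA-binding partners of HOX proteins, had a peak at 9 of 9 genes. PKNOX2 had 16 peaks of up to fold 96.3, whereas PBX4 reached 11.1. These genes are long, with a median of 139 kb, against 24.1 kb over all protein-coding genes, of which 74.2% had a peak. Genes for chromatin regulators of the HOX clusters had a peak at 26 of 27 (96.3%, interval 81.7 to 99.3), and these genes too are longer, with a median of 42.9 kb. Among the Polycomb genes, PHC3 reached fold 106.8, EZH2, the H3K27 methyltransferase, 92.3 and EZH1 2.97. Among the trithorax-group genes, KMT2B reached 79.7 and KMT2A 48.9, and RBBP5 had no peak.

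Homeobox genes related to the HOX genes are given beside the same 74.2% of all protein-coding genes. The ParaHox genes had a peak at 4 of 6 (66.7%), with CDX1 at fold 45.02 and PDX1 at 25.4, while GSX1 and CDX4 had none. Other NK and ANTP class genes had a peak at 16 of 21 (76.2%), including MNX1 at 83.2, DLX5 at 41.1 and NKX2-1, the lung lineage factor, at 11.1. Of the EVX genes, which flank HOX clusters, EVX2 beside HOXD had 3 peaks of up to fold 24.1, and EVX1 beside HOXA had none. The EVX2 peaks include a peak of fold 11.4 that was also counted at HOXD13. The other protein-coding neighbours were SKAP1 with fold 56.6 and TTLL6 with no peak at HOXB, SMUG1 with 34.1 and CALCOCO1 with 7.53 at HOXC, MTX2 with 22.9 at HOXD and SKAP2 with 18.0 at HOXA.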
